A study of Mus musculus with 8 samples.

Results

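The ARF GTPases, the exchange factors that switch them on and the GTPase-activating proteins (GAPs) that switch them off were followed in RNA-seq libraries of the mouse pituitary neuro-intermediate lobe. The members were taken by gene symbol from the deposited tables: the GTPases Arf1, Arf3, Arf4 and Arf5, the exchange factors Gbf1, Arfgef1 and Arfgef2, and the GAPs Arfgap1, Arfgap2 and Arfgap3. These 10 genes are 10 of the 48526 in the count table, and all 10 were among the 15580 genes with enough reads to be tested. The rule goes by name, but it was written with earlier results of these data known.

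The study asked how the transcription factors Creb3l2 and XBP1 contribute to the secretory capacity of melanotropes, the cells of the intermediate lobe that make the hormone precursor POMC. It used 4 groups of C57B6 mice with 2 libraries each: WT, ACreb3l2, AXBP1, and mice that carry both transgenes (ACreb3l2/AXBP1). Each library came from a pool of 5 lobes, and the study's methods place its mice at about 3 months of age. ACreb3l2 and AXBP1 are dominant negative forms of the bZIP factors Creb3l2 and XBP1, in which an acidic stretch replaces the basic region that holds DNA. They pair with the endogenous factor and keep it from binding. The POMC promoter drives both, so they act in POMC cells, while the RNA came from the whole lobe with its other cell types. The study kept 2 lines for each transgene and showed results for one, and the line behind these libraries is not stated in the sources used here. The WT animals carried no transgene.

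Total counts per library ran from 28256086 to 37988912. The labels name the cells melanotropes, and all 7 melanotrope markers were detected, with Pomc taking 6.91% to 14.6% of the counts of a library. Markers of pituicytes, endothelium, macrophages, fibroblasts, the anterior lobe and red blood cells were detected as well, and no marker of any list was at 0 in all libraries. The targeted genes did not mark the carriers. Creb3l2 had 28680 and 28200 normalized counts in WT, 27210 and 26780 with ACreb3l2, and 21210 and 14040 with both transgenes, where it was called lower (log2 change -0.69, edgeR adjusted p = 0.0428). Xbp1 had 11880 and 13440 in WT, 12450 and 13850 with AXBP1, and 17640 and 12850 with both (log2 change 0.27, adjusted p = 0.227). In the carriers of the other transgene, Xbp1 had 9155 and 9205 with ACreb3l2 (log2 change -0.46, adjusted p = 0.127), and Creb3l2 had 18840 and 22830 with AXBP1 (-0.45, adjusted p = 0.492), below both WT libraries in each case and not called by edgeR. By the study's methods each transgene holds coding sequence of its target from the leucine zipper on, so its reads could fall on that gene. No called rise was seen. Whether these counts hold reads of the transgenes was not tested, so the labels could not be checked against them. The study also assayed the transgene transcripts by RT-qPCR, which is not analysed here.

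ARF proteins are small GTPases of the Golgi. An exchange factor loads an ARF with GTP, and the loaded ARF inserts into the Golgi membrane and recruits coats: the COPI coat at the cis-Golgi, and clathrin adaptors at the trans-Golgi network. A GAP then triggers GTP hydrolysis, which releases the ARF and lets the coat come off. Gbf1 works at the ER-Golgi interface and the cis-Golgi, and Arfgef1 and Arfgef2 (the BIG proteins) at the trans-Golgi network and endosomes. Secretory cells such as melanotropes depend on this cycle to return ER proteins from the Golgi and to form transport carriers.

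The start regions of the members are shown first because the blocked factors are bZIP proteins, and because the letters ACGT form the core of many bZIP sites, with CCACGT a form that XBP1 is known to favour. RefSeq windows on the mouse build GRCm38.p6 (mm10) cover 250 bases before to 50 bases after an annotated start. The RefSeq table matched 9 of the 10 members, with 12 windows, and Arfgef1 was not matched. Read on both strands, ACGT was found in the windows of 7 members: Arf1, Arf4, Arf5, Gbf1, Arfgef2, Arfgap1 and Arfgap2. Each line below gives 30 bases around the first such match, 5′ to 3′ on the gene's own strand, with ACGT in capitals.
Arf1: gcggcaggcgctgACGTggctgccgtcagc
Arf4: ttcgctgggctccACGTccggtagttcgca
Arf5: gaggggcggggccACGTgACGTcgggcgga
Gbf1: gaggctagttaccACGTcagtgagctgaca
Arfgef2: gacaccgccagtcACGTggtcACGTgacgc
Arfgap1: cttgcaaagcgcgACGTagccggaagctgc
Arfgap2: gtggtcgagcggtACGTagggtacccgggt

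The stretch of Arf1 lies at chr11:59228228-59228257 on the minus strand, and that of Arf4 at chr14:26638020-26638049 on the plus strand. The Arf5 stretch is chr6:28423523-28423552 and the Gbf1 stretch chr19:46152535-46152564, both on the plus strand. On chromosome 2 and the plus strand are those of Arfgef2 (chr2:166805524-166805553), Arfgap1 (chr2:180967224-180967253) and Arfgap2 (chr2:91265010-91265039). The match lies within an exon of the gene itself in Arf1, Gbf1, Arfgap1 and Arfgap2, and upstream of the gene's annotated exons in Arf4, Arf5 and Arfgef2. In Arf4 it falls in an exon of the antisense gene Arf4os. The windows of Arf3 and Arfgap3 held no ACGT. The exon-free bases before the Arfgap3 start, chr15:83350248-83350497 on the minus strand, are given because Arfgap3 was among the genes that changed most and its window held none of the letters searched.
Arfgap3: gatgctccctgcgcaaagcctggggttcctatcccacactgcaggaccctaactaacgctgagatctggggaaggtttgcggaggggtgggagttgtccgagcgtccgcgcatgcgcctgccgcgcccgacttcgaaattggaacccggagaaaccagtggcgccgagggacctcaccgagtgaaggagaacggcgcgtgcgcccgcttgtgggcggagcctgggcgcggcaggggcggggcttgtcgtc

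The motif counts were set beside all 27025 genes with a RefSeq window, where a gene counts if any of its windows holds the letters. ACGT occurred in 33.8% of these genes (30.9% of the 32851 windows), TGACGT, which contains ACGT, in 8.37%, CCACG in 35.5%, and CCACGT, which contains both ACGT and CCACG, in 9.4%. The ER stress element, read here as CCAAT followed by CCACG after 9 bases, occurred in 0.137% of genes and in none of the members. Among the 9 members, TGACGT was found in Arf1, Arf5 and Gbf1. The letters CCACGT were found in Arf1, Arf4, Arf5, Gbf1 and Arfgef2. CCACG, counted also where it is part of CCACGT, was found in 8 members, all but Arfgap3. The windows of the members held 53.7% to 75.3% G and C. The genes they were set beside were not matched to them for G and C content or for level, so the shares are no test of enrichment. A match is a match of letters and no measurement of binding, and the sections below give the expression of members with and without one.

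Per length of gene the GTPases were the most abundant members. In WT lobes the level of Arf1, which recruits COPI and the clathrin adaptors, was 213 FPKM ± 0.501 (SD, n = 2), the highest of the 10 (FPKM, fragments scaled to gene length and to mapped fragments, as deposited). Arf4 at 87.3 ± 3.71, Arf3 at 80.6 ± 1.05 and Arf5 at 70.4 ± 4.49 FPKM followed, and the libraries of these 4 genes did not overlap from one to the next. Arfgap1, the curvature-sensing Golgi GAP, had 62.3 ± 9.18 FPKM and its range overlapped that of Arf5. Gbf1 (38.5 ± 1.36) and Arfgap3 (37.3 ± 7.22) overlapped each other, Arfgap2 lay at 27 ± 0.987, and Arfgef2 (17.5 ± 1.97) and Arfgef1 (15.2 ± 2.24) came last and overlapped. Of the genes tested, the median was 8.09 FPKM, and the members stood between the 67.2 percentile (Arfgef1) and the 98.4 percentile (Arf1). The locus given with the FPKM ends Arf3, a gene of the minus strand, 986 bases inside its annotated 3′ end. The level of Arf3 per length therefore rests on a shorter model than the annotation used here.

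**Figure D1:**
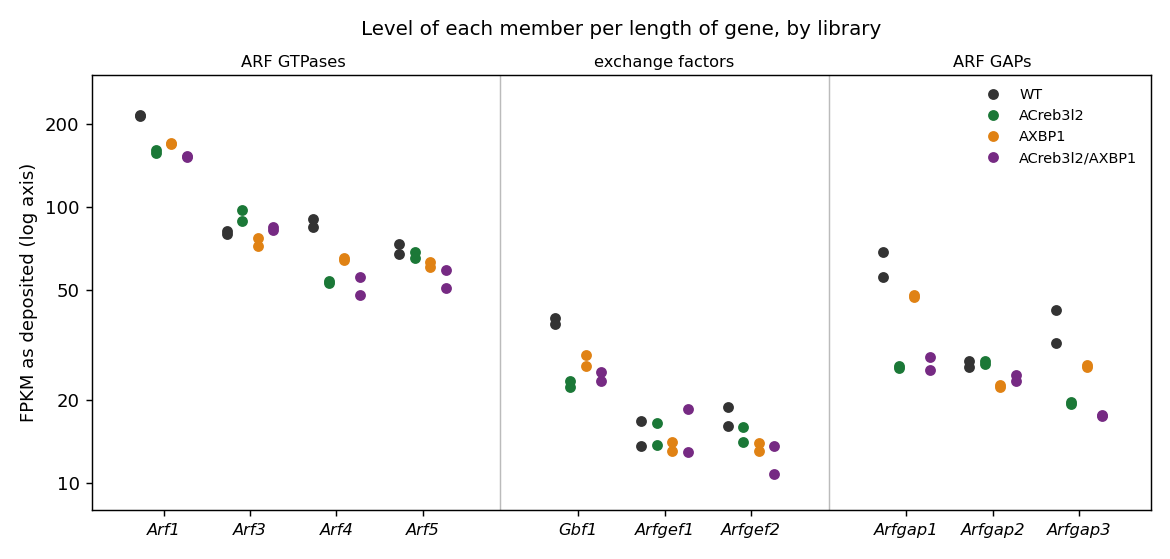
Level of each member in each library in FPKM as deposited, on a log axis, grouped by role, with 1 point per library and 2 libraries per group. Arf1 is the most abundant member in every library, from 151 to 214 FPKM, and Arfgap1 drops from 55.9 and 68.8 FPKM in WT to 26.5 and 26 in ACreb3l2.

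The order of levels differed between the groups. In ACreb3l2 lobes Arf3 (92.9 FPKM) and Arf5 (66.8) stood above Arf4 (53.5), and Arfgap2 (27.3) stood above Arfgap1 (26.2) and Arfgap3 (19.4), with no overlap between these neighbours. In AXBP1 lobes the order was Arf1, Arf3, Arf4, Arf5, Arfgap1, and Arfgap1 (47.7) stayed above Gbf1 (27.9), Arfgap3 (26.6) and Arfgap2 (22.4). In ACreb3l2/AXBP1 lobes Arf5 (54.9) and Arf4 (51.9) overlapped, as did Gbf1 (24.4) and Arfgap2 (24.1).

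Against WT, 5 of the 10 members were lower in ACreb3l2 lobes and none was higher, at an adjusted p under 0.05 in the edgeR quasi-likelihood test (hereafter, called). They were Arfgap1, Arfgap3, Arf4, Gbf1 and Arf1, so each of the 3 roles had members that fell. Of all genes tested, 3.04% were called in this comparison and 2.5% were called lower (473 genes called, 153 to 618 with 1 library left out). The median log2 change of the members was -0.34, beside 0.01 for all genes tested. In RNA of a whole lobe, fewer cells of a type and less RNA per cell cannot be told apart. The p-values measure the spread between pools, and with 2 libraries a group no exact permutation test of a single gene can reach 0.05.

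Arfgap1 changed most. Its normalized counts (scaled to a common depth) were 4139 and 5115 in WT, 2000 and 2016 with ACreb3l2, 4156 and 4010 with AXBP1, and 2323 and 1923 with both transgenes. Both groups that carry ACreb3l2 lay far below the other two, and 1 of the AXBP1 libraries lay within the WT range. The log2 change in ACreb3l2 was -1.20 ± 0.119 (SE, edgeR, adjusted p = 0.000961), which left 43.4% of the WT level. In ACreb3l2/AXBP1 it was -1.12 (adjusted p = 0.0012, edgeR), and in AXBP1 -0.18 (adjusted p = 0.59).

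Arfgap3, a GAP that binds COPI-coated membranes, had 3309 and 4481 normalized counts in WT, and its WT libraries differed from each other more, in proportion, than those of other members. It had 1953 and 2021 with ACreb3l2, 3127 and 3038 with AXBP1, and 1937 and 1755 with both transgenes. No library with ACreb3l2 reached the lowest library without it. Its log2 change was -0.97 ± 0.128 (SE) in ACreb3l2 and -1.08 ± 0.128 in ACreb3l2/AXBP1, with edgeR adjusted p of 0.00387 and 0.00233. In AXBP1 both libraries were below both WT libraries, but the change of -0.34 was not called (adjusted p = 0.492, edgeR).

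Arfgap2, which also acts on COPI vesicles and is the close relative of Arfgap3, did not follow them. Its normalized counts were 2802 and 3101 in WT, 2823 and 3108 with ACreb3l2, 2802 and 2727 with AXBP1, and 2868 and 2544 with both transgenes. The ACreb3l2 libraries spanned nearly the same range as WT. The log2 change was 0.01 with a 95% interval of -0.20 to 0.21 in ACreb3l2, and -0.13 with an interval of -0.33 to 0.08 in ACreb3l2/AXBP1. Of its exonic bases, 33.4% overlap 1110051M20Rik on the other strand, and whether the counting used strand is not stated. That gene had 1890 to 2247 normalized counts and log2 changes of 0.12, 0.09 and 0.18 in the 3 comparisons with WT, none called. Of the 50-base stretches of Arfgap2, 44.4% also occur in other transcripts, mostly those of 1110051M20Rik and Gm15519, so its lack of a called change rests on counts that could hold reads of that gene. The share of such reads was not tested.

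Among the GTPases, Arf4, which cycles with Gbf1 at the early Golgi, fell most. It had 5565 and 6097 normalized counts in WT, 3429 and 3644 with ACreb3l2, 4912 and 4886 with AXBP1, and 3496 and 3553 with both transgenes. The groups formed 3 levels with no overlap, WT highest, AXBP1 between, and both ACreb3l2 groups lowest. The log2 change was -0.72 ± 0.081 (SE, edgeR, adjusted p = 0.00187) in ACreb3l2 and -0.73 (adjusted p = 0.00159) in ACreb3l2/AXBP1, that is 60.6% and 60.5% of WT. The change of -0.25 in AXBP1 was not called (adjusted p = 0.474, edgeR). Arf4 shares 14.6% of its exonic bases with Pde12 on the other strand, and Pde12 had log2 changes of -0.08, -0.19 and -0.10 in the same 3 comparisons, none called.

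Arf1 had 13910 and 14400 normalized counts in WT, 10160 and 10450 with ACreb3l2, 12610 and 12540 with AXBP1, and 10820 and 9545 with both transgenes. WT was above every other library, and the libraries with ACreb3l2 were below every library without it. The log2 change was -0.46 ± 0.088 (SE, edgeR, adjusted p = 0.0224) in ACreb3l2 and -0.48 (adjusted p = 0.0122) in ACreb3l2/AXBP1. This was the least secure call of the 5: in ACreb3l2 it was lost in 8 of 17 alternative analyses, among them those without WT replicate 2, without either ACreb3l2 library or without either AXBP1 library, with adjusted p up to 0.134. In ACreb3l2/AXBP1 it was lost in 3 of 17, those without WT replicate 2, without ACreb3l2/AXBP1 replicate 2 and with the compared groups alone. Of its 50-base stretches, 10.5% also occur elsewhere in the transcripts, mostly in AC127331.2 and Gm19587, so some reads could be assigned there. Apart from Arfgap2, the share was 13.7% in Arf5 (Gcc1) and 13.3% in Arf4 (Pde12 and Arf4os), and at most 2% in the others.

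Arf3, the GTPase closest to Arf1 in sequence and a trans-Golgi protein, stood apart. It had 10890 and 10830 normalized counts in WT, 12420 and 12090 with ACreb3l2, 11000 and 11530 with AXBP1, and 12070 and 10840 with both transgenes. Both ACreb3l2 libraries were above both WT libraries, but the log2 change of 0.17 was not called (95% interval -0.02 to 0.36, adjusted p = 0.348, edgeR). The interval does not reach the fall of Arf1. Arf5, a GTPase of the early Golgi like Arf4, had 2428 and 2717 normalized counts in WT, 2340 and 2319 with ACreb3l2, 2448 and 2511 with AXBP1, and 2214 and 1857 with both transgenes. Its log2 change was -0.14 (adjusted p = 0.508) in ACreb3l2 and -0.34 (adjusted p = 0.0578) in ACreb3l2/AXBP1 in edgeR, so it was not called in either. With 1 library left out it ran from -0.22 (without WT replicate 1) to -0.06 (without WT replicate 2) in ACreb3l2. In ACreb3l2/AXBP1 it ran from -0.47 to -0.22 (without replicate 1 and without replicate 2 of that group), and it was called without that replicate 1, without WT replicate 1 and with no filter on low counts. The overlapping antisense gene Gcc1, on 16.4% of the exonic bases of Arf5, was called lower in ACreb3l2/AXBP1 (log2 change -0.38, edgeR adjusted p = 0.0239).

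Gbf1 was the exchange factor that fell. It had 5711 and 6880 normalized counts in WT, 3854 and 4038 with ACreb3l2, 5511 and 5710 with AXBP1, and 4326 and 3719 with both transgenes. Every library with ACreb3l2 was below every library without it. The log2 change was -0.67 ± 0.108 (SE, edgeR, adjusted p = 0.00971) in ACreb3l2 and -0.65 (adjusted p = 0.00809) in ACreb3l2/AXBP1. Without WT replicate 2, or without either ACreb3l2 library, the call in ACreb3l2 was lost (adjusted p up to 0.0801, edgeR), and without ACreb3l2/AXBP1 replicate 2 the call in ACreb3l2/AXBP1 was lost (adjusted p = 0.0791).

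The exchange factors of the trans-Golgi were not called by edgeR in any comparison of all libraries with low counts filtered. Arfgef1 had 3679 and 3747 normalized counts in WT, 3466 and 4027 with ACreb3l2, 4033 and 4045 with AXBP1, and 3691 and 4469 with both transgenes. Its ACreb3l2 libraries lay on either side of WT, and the log2 change was 0.01 with a 95% interval of -0.23 to 0.25. Arfgef2 had 4146 and 4968 in WT, 3881 and 3914 with ACreb3l2, 4294 and 4274 with AXBP1, and 3747 and 3513 with both transgenes. Both ACreb3l2 groups were below WT without overlap. The changes of -0.23 (adjusted p = 0.269) and -0.33 (adjusted p = 0.0557) did not pass in edgeR. With 1 library left out they ran from -0.35 (without WT replicate 1) to -0.09 (without WT replicate 2) and from -0.45 to -0.20 (the same libraries), and in ACreb3l2/AXBP1 Arfgef2 was called without WT replicate 1 and with no filter on low counts.

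**Figure D2:**
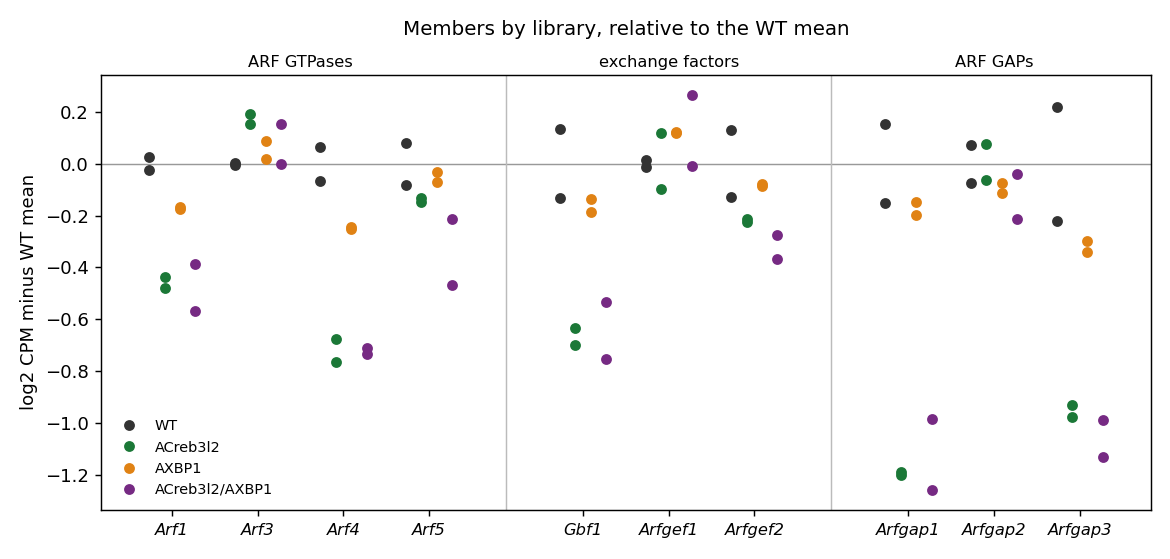
log2 CPM (counts scaled to library size) of each member minus its WT mean, 1 point per library, 2 libraries per group. In Arf1, Arf4, Gbf1, Arfgap1 and Arfgap3 both ACreb3l2 groups lie below WT and AXBP1, while Arfgef1 and Arfgap2 scatter about 0 and Arf3 lies at or above it, up to 0.19 in ACreb3l2.

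In ACreb3l2/AXBP1 lobes the called members were again 5, all lower, and they were the same genes: Arf1, Arf4, Gbf1, Arfgap1 and Arfgap3. This comparison uses the same WT libraries. Here 10.1% of all genes tested were called and 6.99% were called lower (1566 genes called, 218 to 2084 with 1 library left out), and the median log2 change of the members was -0.41, beside 0.01 for all genes. The balance over all genes turned with the scaling: 477 were called higher and 1089 lower, but 1104 higher and 546 lower when scaled by library size alone, where the median of all genes was 0.17 and that of the members -0.25. DESeq2 called 7 members, adding Arf5 and Arfgef2, and 2038 of the 15580 genes tested. Arfgap1, Arfgap3 and Arf4 were called in all 17 alternatives in both comparisons.

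In AXBP1 lobes no member was called, and of all genes tested 0% were called by edgeR. Before adjustment, 1554 genes had p under 0.05 in edgeR, among them 2 members, Arf4 and Arfgap3. DESeq2 called 73 genes and no member. The log2 changes ran from -0.34 (Arfgap3) to 0.12 (Arfgef1), with a median of -0.13, beside 0.00 for all genes tested. Without WT replicate 1 the median was -0.21 and without WT replicate 2 it was -0.02, and Arfgap3 had -0.54 and -0.10. Below 0 were 8 of the 10 members, and Arf3 and Arfgef1 were above it. In the FPKM fits the median was -0.34 and -0.35 (pseudocounts of 1 and 0.1), beside -0.14 and -0.16 for all genes, and Arf3 and Arfgef1 were below 0 too, with no member called. The 95% interval in edgeR, not adjusted for the number of genes, was -0.44 to 0.08 for Arfgap1 and -0.41 to 0.07 for Gbf1. The falls of these genes in ACreb3l2 lay outside these intervals. Over the alternative analyses Arfgap1 ran from -0.38 to -0.02 and Gbf1 from -0.47 to -0.03. The direct comparison of ACreb3l2 with AXBP1, given below, did not call Gbf1.

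**Figure D3:**
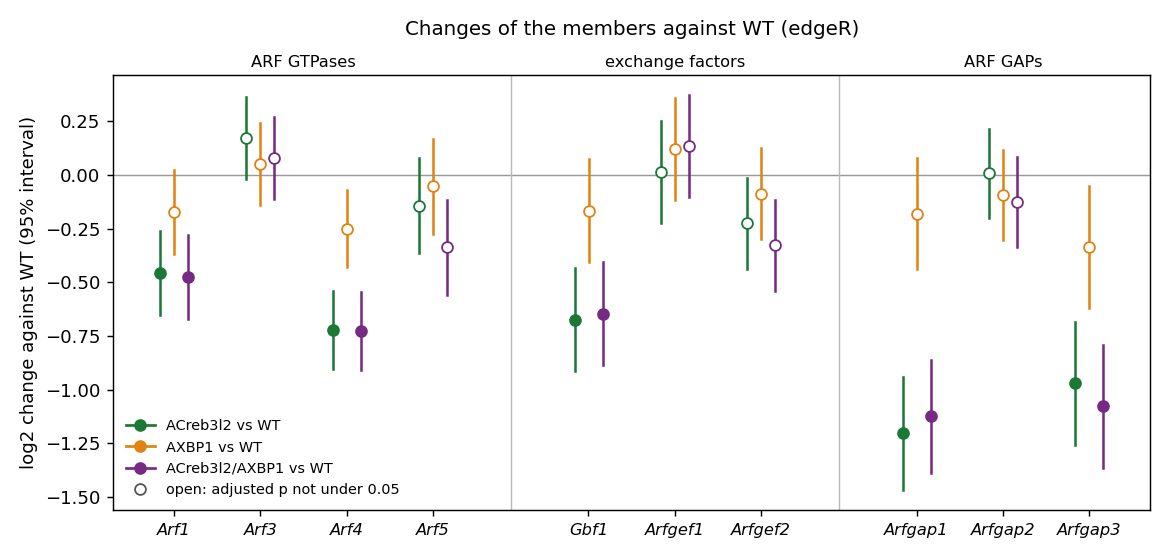
log2 change of each member against WT in the 3 transgenic groups, with 95% intervals from edgeR; filled points have an adjusted p under 0.05. The 5 filled members are the same in ACreb3l2 and ACreb3l2/AXBP1, from -0.46 for Arf1 to -1.20 for Arfgap1 in ACreb3l2, and no AXBP1 point is filled.

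Counts of members whose libraries did not overlap were set beside those of all genes. In ACreb3l2 both libraries were below both WT libraries for 7 members, where 23.2% of all genes tested were. The count was 5 members in AXBP1, beside 23.8% of all genes, and 7 members in ACreb3l2/AXBP1, beside 28.7%. The 7 were Arf1, Arf4, Arf5, Gbf1, Arfgef2, Arfgap1 and Arfgap3 in both groups with ACreb3l2.

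Direct comparison with AXBP1 asked whether the change differs between the transgenes. In ACreb3l2 against AXBP1, Arfgap1 (log2 change -1.02 ± 0.118 SE, edgeR, adjusted p = 0.00516) and Arf4 (-0.47 ± 0.081 SE, adjusted p = 0.029) were called lower, where 0.719% of all genes were called and 0.68% called lower (112 genes called, 18 to 152 with 1 library left out). Gbf1 (-0.51, adjusted p = 0.0813) and Arfgap3 (-0.63, adjusted p = 0.0711) did not pass, and Arf1 had -0.29 (adjusted p = 0.253). Both ACreb3l2 libraries were below both AXBP1 libraries for 8 members, beside 22.4% of all genes. These calls were not stable. Arf4 was lost without either ACreb3l2 library and without either AXBP1 library. Arfgap1 was lost without ACreb3l2 replicate 1 and without AXBP1 replicate 1. In the FPKM fits (pseudocounts of 1 and 0.1) no member was called, where 9 and 15 of 15133 genes were.

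Carrying ACreb3l2 on top of AXBP1 gave lower values for the 5 members that fell against WT. This comparison shares no library with that of ACreb3l2 and WT. Both take their spread from 1 fit over all 8 libraries, so their p-values are not independent. Against AXBP1, the ACreb3l2/AXBP1 lobes had lower Arfgap1 (log2 change -0.94, adjusted p = 0.00771), Arfgap3 (-0.74, adjusted p = 0.0371) and Arf4 (-0.48, adjusted p = 0.0327) in edgeR, where 0.623% of all genes were called and 0.616% called lower (97 genes called, 7 to 155 with 1 library left out). Gbf1 at -0.48 (adjusted p = 0.102) and Arf1 at -0.30 (adjusted p = 0.214) did not pass in edgeR. Arfgap1 alone was called with library size alone (55 of all genes called) and with the replicate block (58). In the FPKM fits no member was called, where 5 and 22 of 15133 genes were. Both libraries were below both AXBP1 libraries for 7 members, beside 24% of all genes. With an AXBP1 library or ACreb3l2/AXBP1 replicate 2 left out no member was called, and with ACreb3l2/AXBP1 replicate 1 or an ACreb3l2 library left out Arfgap1 alone was. For the 5 members that fell against WT, each log2 change was smaller here than in the absence of AXBP1, by 0.15 for Arf1, 0.25 for Arf4, 0.19 for Gbf1, 0.26 for Arfgap1 and 0.23 for Arfgap3. These 5 were picked by their fall in ACreb3l2, so a smaller change elsewhere is a description only. For the others the difference was -0.15 for Arf3, -0.14 for Arf5, -0.04 for Arfgap2, -0.01 for Arfgef2 and 0.00 for Arfgef1. With 1 library left out, the differences of the 5 ran from 0.06 to 0.24 for Arf1, 0.18 to 0.31 for Arf4, 0.05 to 0.32 for Gbf1, 0.10 to 0.41 for Arfgap1 and -0.01 to 0.43 for Arfgap3.

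**Figure D4:**
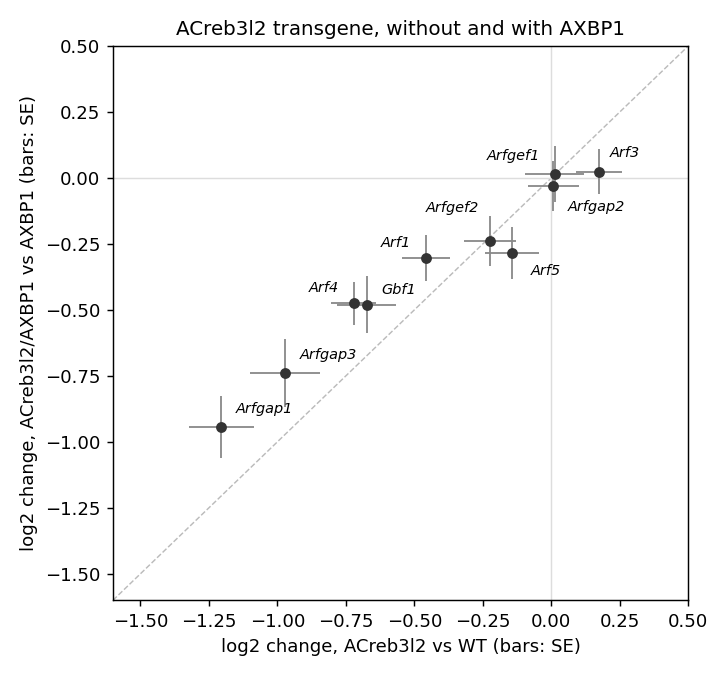
log2 change with the ACreb3l2 transgene without AXBP1 (ACreb3l2 vs WT, horizontal) and with it (ACreb3l2/AXBP1 vs AXBP1, vertical) for the 10 members, with SE bars from edgeR and a dashed line of equality. Arfgap1 lies farthest down at -1.20 and -0.94, and the 5 members that fell against WT lie above the line.

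That difference is the interaction, and it was not called for any member (edgeR adjusted p = 1 for each). Its 95% interval was -0.01 to 0.50 for Arf4 and -0.11 to 0.63 for Arfgap1, so a smaller change in the presence of AXBP1 is neither shown nor bounded tightly. Over all genes, edgeR called 0%, DESeq2 called 4, and 386 had an unadjusted p under 0.05 in edgeR. ACreb3l2/AXBP1 against ACreb3l2 likewise gave no called member and 0% of all genes by edgeR. There 1112 genes, no member among them, had an unadjusted p under 0.05, and DESeq2 called 36. The log2 changes of the members ran from -0.20 (Arf5) to 0.12 (Arfgef1). Both libraries were below both ACreb3l2 libraries for 4 members, Arf3, Arf5, Arfgef2 and Arfgap3, beside 18.6% of all genes. For Arf4 the change was 0.00 with a 95% interval of -0.18 to 0.18.

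Because members of a role moved unequally, the makeup of each role differed between groups. The summed FPKM of the 3 GAPs was 114 and 139 in WT, 73 in both ACreb3l2 libraries, 97.1 and 96.3 with AXBP1, and 70.9 and 66.8 with both transgenes. Within that sum Arfgap1 made up 49.2% ± 0.496 (SD, n = 2) in WT and 35.9% ± 0.421 in ACreb3l2, and Arfgap2 21.5% ± 2.17 and 37.4% ± 0.648. In AXBP1 the shares of Arfgap1 (49.3%) and Arfgap2 (23.2%) were close to those of WT, and in ACreb3l2/AXBP1 they were 39.5% and 35%.

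The makeup of the GTPases shifted too. Their summed level was 447 and 456 FPKM in WT, 380 and 363 with ACreb3l2, 364 and 376 with AXBP1, and 344 and 340 with both transgenes. The share of Arf4 was 19.3% in WT and 14.4% in ACreb3l2, and that of Arf3 17.9% and 25%. Among the exchange factors Gbf1 held 54.1% of the summed FPKM in WT, 43.1% with ACreb3l2, 50.6% with AXBP1 and 46.5% with both transgenes. On the FPKM scale the median log2 change of all genes in AXBP1 against WT was -0.14, so sums in AXBP1 are read against a lower scale, while shares within a role do not depend on the scaling between libraries. The shares are a description, without a test.

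**Figure D5:**
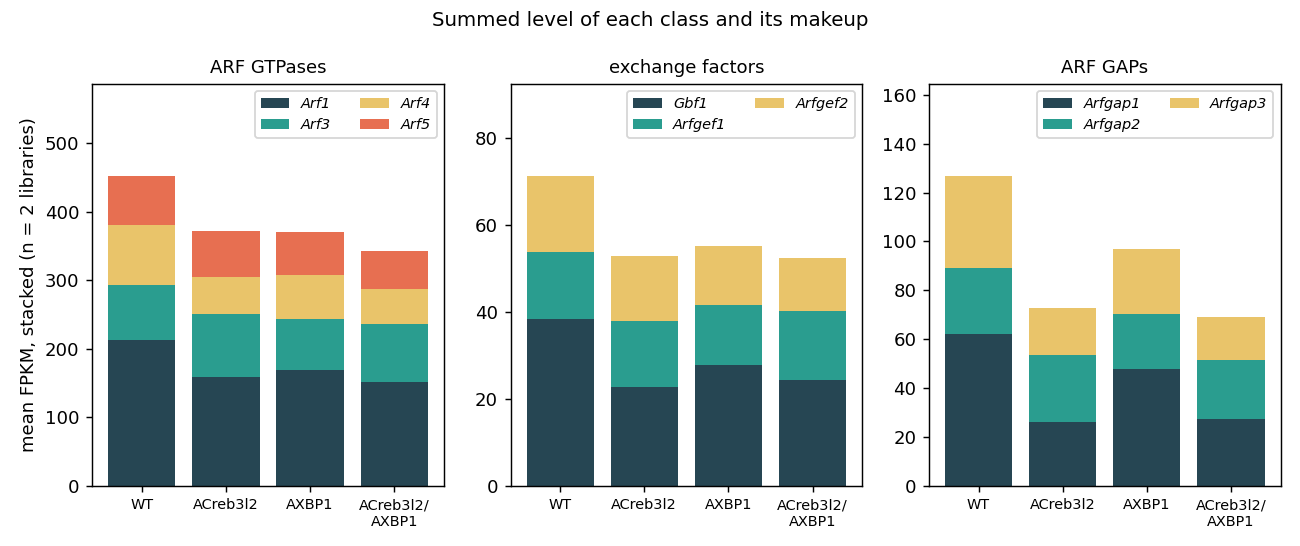
Mean FPKM of the members, stacked by role, in each group (n = 2 libraries, no error drawn; each axis starts at 0). The GAP column falls from 127 FPKM in WT to 73 in ACreb3l2, mainly through Arfgap1 and Arfgap3, while the Arfgap2 segment stays near 27.

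The members that fell varied together over the libraries. Over the 8 libraries, Pearson's r between any pair of Arf1, Arf4, Gbf1, Arfgap1 and Arfgap3 was 0.968 to 0.988 on log2 CPM, and the lowest r among all members was -0.699, between Arf3 and Arf4. These points share the groups, so the values describe the group pattern. Of all other genes tested, those most like the mean profile of the members were Gorasp2 (r = 0.997), a Golgi stacking protein, Tm9sf4 (0.996), Yif1a (0.995), an ER-Golgi membrane protein, Dap (0.995) and Spg20 (0.994). For single members the most alike were Pycr1 for Arfgap1 (0.999), Yif1a for Arfgap3 (0.996), Bet1l, a Golgi SNARE, for Arf4 (0.994), Ept1 for Arf1 (0.994) and Tmed3, a p24 cargo protein, for Gbf1 (0.993).

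The wider ARF pathway was read through lists of genes by role, beside the 3.04% of all genes called in ACreb3l2 and the 10.1% called in ACreb3l2/AXBP1. Of 18 other ARF and ARF-like GTPases, 1 was called lower in ACreb3l2, the trans-Golgi GTPase Arl1 (log2 change -0.62, edgeR adjusted p = 0.00258). In ACreb3l2/AXBP1 there were 2, Arl1 (-0.54, adjusted p = 0.00369) and Arf6 (-0.28, adjusted p = 0.0437), the ARF of the plasma membrane. None of the 12 other exchange factors was called. Of the other GAPs 19 of 20 were tested (Acap1 was too low), with 0 called in ACreb3l2 and 2 lower in ACreb3l2/AXBP1, Asap1 (-0.40) and Git1 (-0.42). In ACreb3l2/AXBP1, 2 of 18 and 2 of 19 are near the share of all genes. The medians of these 3 lists ran from 0.02 to 0.08 on the log2 scale in both comparisons.

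Downstream of the ARFs, 8 of the 9 genes listed for the COPI coat were called lower in ACreb3l2 and 8 of 9 in ACreb3l2/AXBP1, with medians of -0.61 and -0.68. The lowest adjusted p (edgeR) in ACreb3l2 were those of Copz2 (-1.58, 0.000443), Copb2 (-0.84, 0.00375) and Copg1 (-0.72, 0.00859). Of 11 genes of the clathrin adaptors AP-1 and GGA, only Gga2 was called by edgeR, lower in ACreb3l2 (-0.73, adjusted p = 0.00425) and in ACreb3l2/AXBP1 (-0.81, adjusted p = 0.00244). Of 10 other effectors, Arfip2 was called lower in ACreb3l2 (-0.83, adjusted p = 0.0118). In ACreb3l2/AXBP1 the called effectors were Arfip2 (-0.78, adjusted p = 0.0103), Golga1 and Golga4 (-0.29 and -0.30, both 0.0462). The share of COPI genes called lies above that of all genes in both groups, while 1 adaptor gene of 11 in ACreb3l2/AXBP1 is near the 10.1% of all genes. No gene of these 6 lists was called higher in either group, and in AXBP1, where 0% of all genes were called, none of theirs was.

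Markers of cell types moved with some of these groups. The summed level of the 7 melanotrope markers, of which Pomc is most, was 99200 to 143000 FPKM in WT, 96300 to 114000 with ACreb3l2, 79300 to 94900 with AXBP1 and 61200 to 73400 with both. All 7 were below WT in ACreb3l2, with a median log2 change of -0.25 and none called, and all 7 in ACreb3l2/AXBP1, with a median of -0.66 and Tbx19 called (-0.88, edgeR adjusted p = 0.0245). In AXBP1, where no member was called, 5 of the 7 were below WT with a median of -0.24, and none was called. The 7 pituicyte and astroglial markers were all above WT in both groups with ACreb3l2, with medians of 0.38 and 0.23 and Aqp4 called in ACreb3l2/AXBP1 (0.51, adjusted p = 0.0464). In AXBP1, 6 of the 7 were above WT, with a median of 0.18. Their sum was 231 to 282 FPKM in WT and 264 to 348 in ACreb3l2. The anterior lobe markers summed to 5360 to 7820 FPKM in WT, 4130 to 5620 with ACreb3l2, 2380 to 2470 with AXBP1 and 3700 to 6690 with both. In the comparisons of ACreb3l2, AXBP1 and ACreb3l2/AXBP1 with WT, the median log2 changes of the endothelial markers were -0.01, 0.42 and 0.51, those of the macrophage markers 0.15, 0.00 and -0.02, those of the fibroblast and pericyte markers -0.04, 0.30 and 0.20, and those of the erythroid markers 0.45, -0.19 and -0.24, with none of these genes called. The part of these shifts in the changes of the members was not tested.

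The motif matches were set beside the changes of the members as a description, and a relation between them was not tested. Of the 5 genes that fell, Arf1, Arf4, Gbf1 and Arfgap1 held ACGT in their windows, and Arfgap3 did not. Of the 4 others with a window, Arf5, Arfgef2 and Arfgap2 held it, and Arf3 did not. Arf5, with CCACGT and a further ACGT side by side upstream of its exons, had a log2 change of -0.14 in ACreb3l2 that was not called, and Arfgap3, without any of the letters searched, had -0.97.

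The members lie on 7 chromosomes, all as protein coding genes. On chromosome 2 (mm10) lie Arfgap2 (chr2:91264974-91276931), Arfgef2 (chr2:166805588-166898052) and Arfgap1 (chr2:180967225-180982526), all on the plus strand. Chromosome 15 holds Arfgap3 (chr15:83299739-83350247) and Arf3 (chr15:98736634-98763214) on the minus strand. The others are Arf1 at chr11:59211412-59228270 and Arfgef1 at chr1:10137571-10232670, both minus, and Arf4 at chr14:26638074-26665084, Arf5 at chr6:28423560-28426602 and Gbf1 at chr19:46152509-46286510, all plus. Chromosomes 2 and 15 each hold 1 member that fell, Arfgap1 and Arfgap3, beside members that were not called, and the 5 others each lie on a chromosome with no other member.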

How the data were processed

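RNA of pooled neuro-intermediate lobes was sequenced as paired reads in 8 libraries. The authors deposited raw counts per Ensembl gene, without normalization, and FPKM values (fragments scaled to gene length and to mapped fragments). Per the study's methods, reads were trimmed with Trimmomatic, aligned to mm10 with Tophat and counted with HTSeq-count. A software list printed with the study also names STAR and cufflinks. The annotation release and the strand setting are not given in the sources used here. The labels state ribosomal depletion, and the methods text describes a stranded mRNA kit. Reads that fall where genes overlap on opposite strands may therefore be assigned to either gene.

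Groups came from the labels. Genes with a mean normalized count above 20 were tested (15580 genes, 99.9% of counts), with TMM scaling and the quasi-likelihood test of edgeR 4.0.16 in R 4.3.3. 1 model over all 8 libraries gave each group its mean. P-values were adjusted after Benjamini and Hochberg over all genes tested, with a threshold of 0.05. SE were derived from the F statistic. For normalized counts, each library was divided by its effective size after TMM and brought to a common depth. Log2 CPM used a prior count of 2. The 7 comparisons were the pairs of groups and the interaction (double transgenic minus the sum of both single changes). Alternatives were other scalings and filters, DESeq2 1.42.0, limma 3.58.1 on log2(FPKM + 1) and log2(FPKM + 0.1), the compared groups alone, a replicate block and leaving out each library, 17 in all. Replicates were distinct libraries (r of log2 counts 0.989 to 0.994).

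The members and the pathway, marker and motif lists were chosen with earlier results of these data known. All 10 members are named, and per pathway list and comparison with WT up to 3 called genes of lowest adjusted p. The 5 genes most like the mean of the members, and for called members the closest gene, are named by Pearson's r. Loci are those of GENCODE M21 on mm10, and start regions those of RefSeq.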

Additional observations from a re-analysis of the deposited data

How the results depend on the processing

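Across 17 alternatives, 1054 of 1180 recomputed log2 changes of single members kept their direction and side of the threshold, 52 lost a call, 21 gained one, and 53 changed sign, all 53 called in neither analysis. Arfgap1, Arfgap3 and Arf4 were called against WT in all 17 in both groups with ACreb3l2. With library size alone, the median log2 change of the members in ACreb3l2/AXBP1 against WT was -0.25, where the median of all genes moved to 0.17. Arfgap1 was then the 1 member called in ACreb3l2 and the 1 in ACreb3l2/AXBP1 against AXBP1, where 88 and 55 of 15580 genes were called. The FPKM fits (pseudocount 1, then 0.1) gave medians of -0.34 and -0.35 in AXBP1 against WT, 0.00893 and 0.00948 in ACreb3l2 against AXBP1, -0.16 and -0.17 in ACreb3l2/AXBP1 against AXBP1, and 0.23 and 0.24 for the interaction. They called 0 members in both comparisons with AXBP1. Of all 15133 genes they called 9 and 15 in ACreb3l2 and 5 and 22 in ACreb3l2/AXBP1 against AXBP1. In these fits the median of all genes was -0.14 and -0.16 in AXBP1 against WT, and 0.16 and 0.18 in ACreb3l2 against AXBP1. For ACreb3l2 against AXBP1, 4 members were called with no filter on low counts, with DESeq2 and with the compared groups alone. Over all genes these fits called 730 of 29547, 258 of 15580 and 145 of 15580. The causes were not tested.

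Leaving out 1 library gave 3 to 5 called members in ACreb3l2 against WT, 3 to 7 in ACreb3l2/AXBP1 against WT, 0 to 4 in ACreb3l2 against AXBP1 and 0 to 4 in ACreb3l2/AXBP1 against AXBP1. The median ran from -0.52 to -0.34 in ACreb3l2/AXBP1 against WT and from -0.41 to -0.21 against AXBP1. It ran from -0.42 to -0.26 in ACreb3l2 against WT, from -0.21 to -0.02 in AXBP1 against WT and from -0.01 to 0.15 for the interaction. The replicate numbers do not pair the libraries: deviations of same-numbered libraries correlated at -0.197 to 0.0887. With the replicate block, 4 members were called in ACreb3l2 against WT (Arf1 was lost), 5 in ACreb3l2/AXBP1 against WT, 0 in AXBP1 against WT, and Arfgap1 alone, 1 member, in each comparison with AXBP1. Over all genes the block called 321, 1113 and 3 in these comparisons with WT. Against AXBP1 it called 95 in ACreb3l2 and 58 in ACreb3l2/AXBP1.

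Calls over all genes moved more. In ACreb3l2 against WT, 473 genes were called, with 304 by library size alone, 1455 with no filter, 751 by DESeq2, 275 with the compared groups alone, 321 with the block, and 176 and 178 in the FPKM fits. In ACreb3l2/AXBP1 against WT, 1566 were called, with 3209 for no filter, 654 for the compared groups alone, and 717 and 797 for FPKM. In AXBP1 against WT, 0 became 628 with no filter. Leaving out 1 library gave 153 (without ACreb3l2 replicate 2) to 618 (without WT replicate 1) in ACreb3l2 against WT, with 158 without WT replicate 2 and 195 without ACreb3l2 replicate 1, and 218 (without ACreb3l2/AXBP1 replicate 2) to 2084 (without its replicate 1) in ACreb3l2/AXBP1 against WT, with 355 without WT replicate 2. In ACreb3l2 against AXBP1, 112 became 25 and 51 without an ACreb3l2 library, 18 and 21 without an AXBP1 library, and 152 without either WT library. In ACreb3l2/AXBP1 against AXBP1, 97 became 7 without either AXBP1 library, 11 without ACreb3l2/AXBP1 replicate 2, and 155 without either WT library. By library size alone, 1650 genes were called in ACreb3l2/AXBP1 against WT, 1104 higher and 546 lower, in place of 477 higher and 1089 lower. The FPKM fit with a pseudocount of 1 gave 41 higher and 676 lower there, and 9 higher and 167 lower in ACreb3l2 against WT, in place of 84 and 389. The shares of all genes called move with these counts.

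The following log2 changes had the other sign, none called. With library size alone these were Arf5 in AXBP1 against WT (0.0101), Arfgap2 in ACreb3l2/AXBP1 against WT (0.036) and against AXBP1 (0.0669), Arf1 (0.0658) and Arf4 (0.0817) in ACreb3l2/AXBP1 against ACreb3l2, and the interaction of Arfgef2 (0.00571). In the FPKM fits they were Arfgef1 in ACreb3l2 against WT (-0.00946 and -0.00995), Arf3 (-0.12 and -0.12) and Arfgef1 (-0.15 and -0.16) in AXBP1 against WT, Arf5 (0.11 and 0.12), Arfgef1 (0.14 and 0.15) and Arfgef2 (0.14 and 0.15) in ACreb3l2 against AXBP1, Arfgap2 in ACreb3l2/AXBP1 against AXBP1 (0.10 and 0.10), and the interactions of Arfgef2 (0.0539 and 0.0541) and Arfgap2 (0.0818 and 0.085). Leaving out 1 library gave ranges across 0 for Arfgef1 (-0.0945 to 0.118) and Arfgap2 (-0.0646 to 0.0803) in ACreb3l2 against WT, Arf5 (-0.132 to 0.029) and Arfgef2 (-0.214 to 0.0462) in AXBP1 against WT, and Arf3 (-0.00235 to 0.143) and Arfgef1 (-0.0173 to 0.268) in ACreb3l2/AXBP1 against WT. Against AXBP1 they were Arf3 (-0.0551 to 0.0975), Arfgef1 (-0.132 to 0.146) and Arfgap2 (-0.12 to 0.0512) in ACreb3l2/AXBP1. Against ACreb3l2 they were Gbf1 (-0.0852 to 0.128), Arf1 (-0.111 to 0.0659), Arf4 (-0.0425 to 0.0419), Arfgap1 (-0.0628 to 0.206) and Arfgef1 (-0.0253 to 0.255). For the interaction they were Arfgef2 (-0.153 to 0.111), Arfgap2 (-0.127 to 0.0489), Arfgef1 (-0.14 to 0.134) and Arfgap3 (-0.00666 to 0.434).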

Other observations

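The WT libraries differed from each other more than those of other groups for several members. WT replicate 2 had more normalized counts than WT replicate 1 for 9 of the 10 members, all but Arf3, with Arfgap3 at 3309 and 4481, Arfgap1 at 4139 and 5115, and Gbf1 at 5711 and 6880. The deposited FPKM did not follow this for every member: replicate 2 was higher for 6 of 10, with Arfgap3 at 32.2 and 42.4 and Arfgap1 at 55.9 and 68.8, but lower for Gbf1 (39.5 and 37.6), Arfgef1 (16.8 and 13.6), Arf3 (81.4 and 79.9) and Arf1 (214 and 213). In AXBP1 the same genes differed little, with Arfgap3 at 3127 and 3038 and Arfgap1 at 4156 and 4010. Pomc took 10.5% of counts in WT replicate 1 and 14.6% in replicate 2. Without WT replicate 1 the log2 change of Arfgap3 in ACreb3l2 was -1.17, and without WT replicate 2 it was -0.74, both called by edgeR.

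Among the genes that share exons with members on the opposite strand, Arf4os had 4.95 to 18.5 normalized counts and Gm16726, within Gbf1, 0 to 6.54. Pde12, which overlaps Arf4, had 1015 to 1169, Gcc1, which overlaps Arf5, 1801 to 2538, and 1110051M20Rik, which overlaps Arfgap2, 1890 to 2247. These are the counts assigned to those genes. With the strand setting not stated, they do not bound the reads added to the members.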
